A study of Homo sapiens with 10 samples.

Results

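BCR, ABL1 and 8 genes whose proteins signal directly with the BCR-ABL1 kinase (GRB2, CRKL, GAB2, STAT5A, STAT5B, CBL, SHC1 and LYN) were followed in microvesicles released by K562 cells and in the K562 cells themselves. Every probe set whose platform annotation names 1 of these 10 genes, and no other gene, was taken, which gave 26 of the 54613 probe sets tested. K562 is an established human cell line from chronic myeloid leukaemia with a BCR-ABL1 fusion, which both groups share. The groups were microvesicles shed by K562 (5 arrays) and cultured K562 cells (5 arrays), with RNA taken by Trizol in 5 independent experiments and no treatment named for either, on the Affymetrix HG-U133 Plus 2.0 array. How the vesicles were isolated, and whether any cells remained with them, is not stated in those descriptions. They do not say whether an experiment used a culture of its own, and the spread behind each p-value is that of 5 and 5 arrays, which may be technical. The deposited values are log2 expression values made with RMA, and a change is microvesicles minus cells on that scale.

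BCR-ABL1 arises when a translocation joins the start of BCR to most of ABL1, which leaves the ABL1 tyrosine kinase active without a signal. GRB2, a small adaptor, binds a phosphorylated tyrosine in the BCR portion and recruits the scaffold GAB2 and the exchange factor SOS, which links the kinase to RAS and to phosphoinositide 3-kinase. CRKL is a prominent substrate of BCR-ABL1 in chronic myeloid leukaemia cells, SHC1 is another adaptor to GRB2, STAT5A and STAT5B are transcription factors activated by the kinase, LYN is a SRC family kinase, and CBL is a ubiquitin ligase and adaptor. Cells shed microvesicles as small membrane-bound particles with RNA inside.

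The arrays of the microvesicle group were less alike than those of the cells, with Pearson correlations over all probe sets of 0.911 to 0.944 among microvesicles and 0.990 to 0.997 among cells (across probe sets, which are not independent replicates). Of the 8 K562 and erythroid markers listed, 7 had a single-gene probe set here, and their means ran from 6.45 (GATA1) to 12.09 (HBE1) in microvesicles and from 7.06 (GATA1) to 12.28 (TFRC) in cells. Their summed level ran from 12.58 to 13.18 in microvesicles and from 13.16 to 13.69 in cells on the log2 scale. Sums were taken of unlogged values, so the brightest markers weigh most. As deposited 0 of these 7 passed upwards and 3 downwards, and after loess normalization by level (described below) 2 upwards and 1 downwards. Summed monocyte and granulocyte markers were higher in microvesicles, at 5.99 to 6.42 against 5.16 to 5.45 in cells. Of these, 4 of 4 passed upwards as deposited and 1 of 4 after loess. Those of fibroblasts and endothelium stood at 7.21 to 7.87 in microvesicles and 6.88 to 7.11 in cells (3 of 4 passed upwards, 2 of 4 after loess), and those of lymphocytes at 7.89 to 9.14 in microvesicles and 8.02 to 8.96 in cells (3 of 4 passed upwards, 2 of 4 after loess). Of all probe sets with a mean between 2 and 3, between 3 and 4 and between 4 and 5, the levels at which 9 of these 12 markers lie, 59.0%, 45.1% and 34.96% passed upwards as deposited. In both groups 2 of the 4 monocyte and granulocyte markers, 2 of the 4 fibroblast and endothelial markers and 1 of the 4 lymphocyte markers lay below the median of the table. Of the 2 epithelial markers, EPCAM fell, at 6.55 in microvesicles and 9.42 in cells, and KRT19 did not pass, at 7.25 in microvesicles and 7.76 in cells (-0.51, limma adjusted p = 0.076; 0.35 after loess). For ACTB the 3' control probe set minus the 5' one, a measure of RNA integrity, was 2.72 to 3.64 in microvesicles and 2.26 to 2.57 in cells (exact permutation p = 0.00794, the smallest possible with 5 and 5 arrays; adjusted p = 0.0106 over 4 measures), and microvesicles replicate 4 had the highest value. The part of these differences in the results below was not tested. In bulk RNA of this kind, fewer cells or vesicles of a type and less of an RNA in each cannot be told apart.

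Changes on these arrays depended on level, which sets the background for every value below. The SD over all probe sets of an array was 1.89 to 1.99 in microvesicles and 2.33 to 2.36 in cells. Array medians were 4.22 to 4.28 in microvesicles and 4.08 to 4.12 in cells (exact permutation p = 0.00794 and adjusted p = 0.0106 for each). The part of this narrower spread in the changes below was not tested. Over all probe sets 62.4% passed the threshold (limma adjusted p under 0.05), 35.4% higher and 27.0% lower in microvesicles, with a median change of 0.27. Among the 11835 probe sets with a mean of at least 6 over the 10 arrays, 7.31% passed upwards and 63.2% passed downwards, with a median change of -0.80. Loess normalization by level, which fits each array against the mean of all arrays, moved the median over all probe sets to 0.03 and the share passing to 39.9% (18.6% higher, 21.3% lower). Quantile normalization of the deposited values over the 10 arrays and median centring moved that median to 0.12 and 0.11.

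Of the 26 probe sets of the 10 genes, 4 rose, 14 fell and 8 did not pass in microvesicles, with a median change of -0.51. Of the 14 with a mean of at least 6 over the 10 arrays, 1 rose and 8 fell (median -0.55), and 3 rose and 1 fell once loess was applied. Over all 26 after loess, 6 rose, 6 fell and 14 did not pass, with a median of 0.14 against 0.03 for all probe sets. The groups did not overlap in 15 of the 26 probe sets, 3 higher and 12 lower in microvesicles, against 45.9% of all probe sets. Read from the probe set with the highest mean of each gene, called the brightest here, GAB2 rose and BCR, CRKL, STAT5A, STAT5B and CBL did not pass. ABL1, GRB2, SHC1 and LYN fell, but none of these 4 falls passed after loess, where ABL1, SHC1 and LYN stood at 0.34, 0.17 and 0.01 and GRB2 at -0.35.

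**Figure D1:**
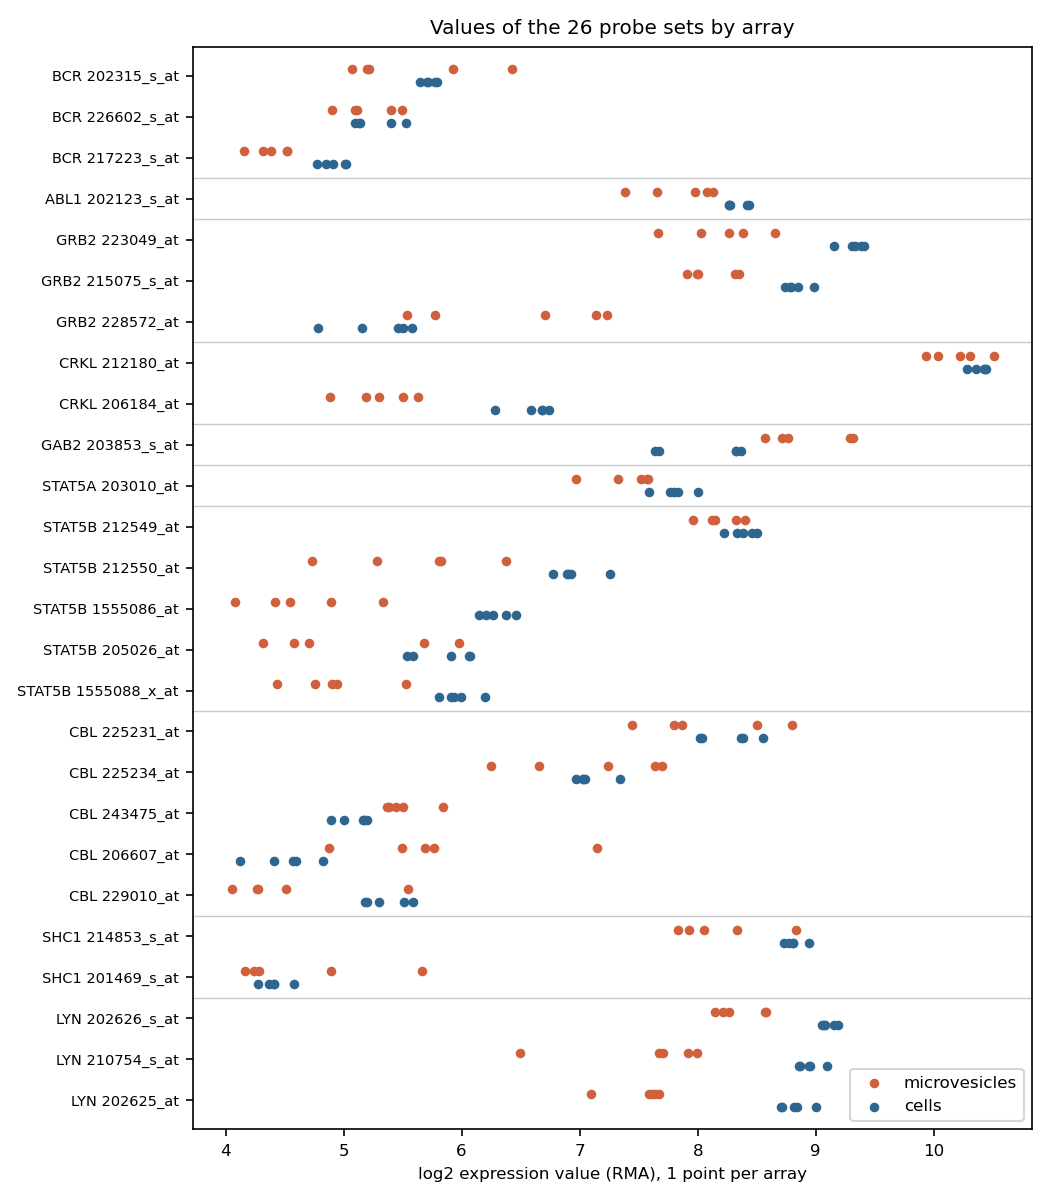
Log2 expression value (horizontal axis) of each of the 26 probe sets on every array, with microvesicles above and cells below in each line. The 5 GAB2 values of microvesicles lie above all 5 of cells, the LYN values of microvesicles lie below all those of cells in all 3 probe sets, and the probe sets of GRB2 and CBL go both ways. These are the deposited values; after loess LYN 202626_s_at stood at 0.01.

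ABL1 encodes the kinase moiety of the fusion and is read by a single probe set, 202123_s_at. It stood at 7.66, 7.98, 8.08, 8.13 and 7.38 in microvesicles replicates 1 to 5, against 8.43, 8.28, 8.27, 8.42 and 8.26 in cells. All 5 microvesicle values lay below all 5 cell values, and the microvesicle values spread more widely. The means were 7.85 ± 0.32 in microvesicles and 8.33 ± 0.09 in cells (SD, n = 5 each), a change of -0.49 ± 0.18 (SE), or 1.40-fold lower (limma adjusted p = 0.0289). In the band of probe sets whose mean lies between 8 and 9, the median change was -0.79 and 65.1% passed downwards. The ABL1 change was 0.34 after loess (limma adjusted p = 0.177) and 0.37 after quantile normalization of the deposited values (0.124). With median centring it was -0.65 and passed downwards (limma adjusted p = 0.00775), so its sign depended on the scaling. The call was also lost without cells replicate 1 (limma adjusted p = 0.0669), 2 (0.0523), 3 (0.0508) or 4 (0.0620), and without microvesicles replicate 5 (-0.37, 0.0521).

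BCR, whose promoter and first exons drive and begin the fusion transcript and whose own protein holds a serine/threonine kinase region, is read by 3 probe sets, of which 1 passed. The brightest, 202315_s_at, was 5.20, 5.92, 5.22, 6.43 and 5.07 in microvesicles replicates 1 to 5 and 5.79, 5.77, 5.71, 5.65 and 5.71 in cells. Replicates 2 and 4 of the microvesicles lay above every cell array and the other 3 below every cell array. The means were 5.57 ± 0.58 in microvesicles and 5.73 ± 0.06 in cells (SD, n = 5 each), and the change of -0.16 ± 0.24 did not pass (limma adjusted p = 0.569).

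The BCR probe set 226602_s_at was 5.10, 5.11, 5.40, 5.50 and 4.90 in microvesicles and 5.14, 5.40, 5.13, 5.53 and 5.10 in cells, with overlapping groups and a change of -0.06 ± 0.17 (limma adjusted p = 0.775). The third, 217223_s_at, was 4.52, 4.31, 4.52, 4.15 and 4.39 in microvesicles and 4.85, 5.02, 4.91, 5.01 and 4.77 in cells. There all microvesicle values lay below all cell values, and the change of -0.53 ± 0.15 passed (limma adjusted p = 0.00847). It passed downwards under each alternative scaling as well (-0.69 with median centring, -0.54 after quantile normalization and -0.60 after loess). Its mean lies between 4 and 5, where 25.7% of all probe sets passed downwards as deposited. Its values, between 4.15 and 5.02 on all arrays, lie near the median of the table, 4.19, and the files give no detection call.

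Set side by side, the changes of the BCR probe sets could not be told apart in the deposited values. The per-array difference of 217223_s_at from 202315_s_at was -1.19 ± 0.73 in microvesicles and -0.81 ± 0.13 in cells (SD, n = 5 each), a difference of change of -0.37 (exact permutation p = 0.421, adjusted p = 0.473 over 18 pairs). After loess this difference was -0.96 (exact permutation p = 0.00794, adjusted p = 0.0179). That of 226602_s_at was 0.10 (exact permutation p = 0.667, adjusted p = 0.667). Between the brightest probe sets of the fusion partners, the change of BCR minus that of ABL1 was 0.33 (exact permutation p = 0.143, adjusted p = 0.194), with an array-by-array BCR minus ABL1 difference of -2.86 to -1.71 in microvesicles and -2.77 to -2.50 in cells. That pair passed only without microvesicles replicate 3 (0.47, exact permutation adjusted p = 0.0159) and stood at 0.02 after loess. The files do not place the probes on the transcripts, so which probe sets read the fusion, the unrearranged BCR or the unrearranged ABL1 transcript is not known here.

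**Figure D2:**
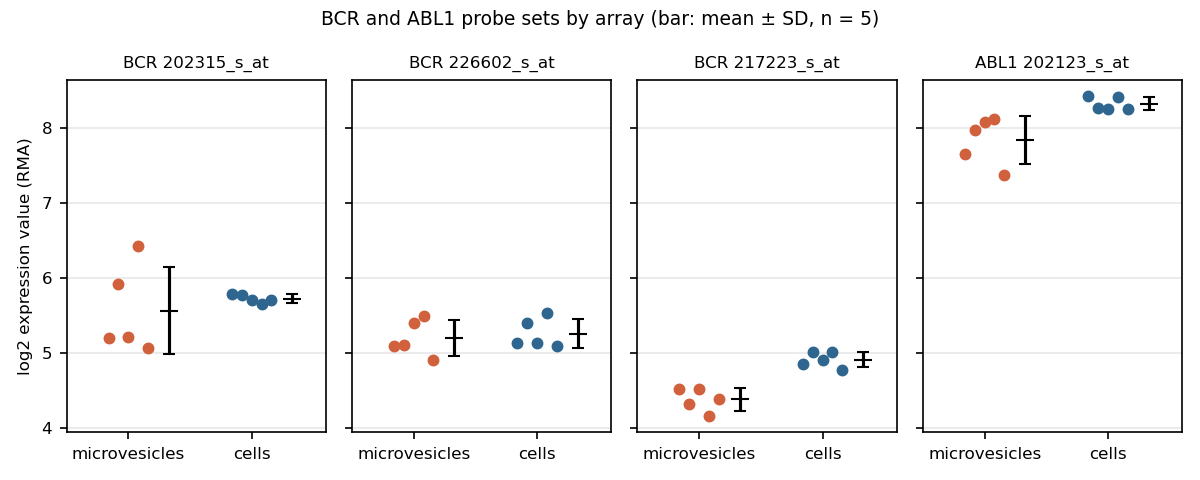
Log2 expression value (vertical axis) of the 3 BCR probe sets and the ABL1 probe set, 1 point per array in order of replicate number, with the mean and SD of 5 arrays beside the points. In the deposited values ABL1 (0.34 after loess) and BCR 217223_s_at separate the groups, while the microvesicle values of BCR 202315_s_at lie on both sides of the cells.

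GRB2 and CRKL are the adaptors closest to the kinase. In the deposited values GRB2 fell in its 2 bright probe sets, of which 215075_s_at turned sign after loess, and rose in the third. The probe set 223049_at was 8.38, 8.03, 8.26, 8.66 and 7.66 in microvesicles and 9.16, 9.38, 9.33, 9.41 and 9.30 in cells, a change of -1.12 ± 0.19, or 2.17-fold lower (limma adjusted p = 0.000273). The groups did not overlap, but the call was lost after loess (-0.35, 0.169) and after quantile normalization (-0.41, 0.0888). The probe set 215075_s_at ran from 7.91 to 8.35 in microvesicles and from 8.74 to 8.99 in cells. It changed by -0.71 ± 0.16 (limma adjusted p = 0.0018) with groups that did not overlap, but it stood at 0.08 after loess and 0.06 after quantile normalization. Both of these probe sets have a mean between 8 and 9. In that band the median change was -0.79 and 65.1% of all probe sets passed downwards. The third, 228572_at, was 5.77, 7.23, 7.14, 6.71 and 5.53 in microvesicles and 5.46, 5.15, 5.50, 4.79 and 5.58 in cells. Replicates 2, 3 and 4 of the microvesicles stood more than a log2 unit above the cells while replicates 1 and 5 lay close to them, and the groups overlapped. Its rise of 1.18 ± 0.32 (limma adjusted p = 0.00619) was 1.81 after loess. The change of 228572_at exceeded that of 223049_at by 2.30 (exact permutation p = 0.00794, adjusted p = 0.0179), the widest gap among the 18 pairs.

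CRKL did not pass in its brightest probe set, 212180_at, with 9.93, 10.22, 10.31, 10.51 and 10.04 in microvesicles and 10.28, 10.43, 10.43, 10.36 and 10.44 in cells. The groups overlapped and the change was -0.19 ± 0.16 (limma adjusted p = 0.313). The other, 206184_at, was 5.50, 5.19, 5.30, 4.89 and 5.63 in microvesicles and 6.68, 6.74, 6.68, 6.59 and 6.28 in cells, so that every microvesicle array lay below every cell array. It fell by 1.29 ± 0.18, or 2.45-fold (limma adjusted p = 5.34e-05), and by 0.64 after loess (0.0122). Its mean lies between 5 and 6, where 45.9% of all probe sets passed downwards. The changes of the 2 probe sets differed by -1.11 in the deposited values (exact permutation p = 0.00794, adjusted p = 0.0179) and by -1.01 after loess.

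GAB2, the scaffold that couples GRB2 to phosphoinositide 3-kinase and the phosphatase encoded by PTPN11, was the only member whose brightest probe set rose in the deposited values. Its single probe set, 203853_s_at, was 8.71, 9.31, 9.29, 8.76 and 8.57 in microvesicles and 8.33, 8.33, 8.37, 7.64 and 7.67 in cells. Every microvesicle array lay above every cell array, and cells replicates 4 and 5 were about 0.7 lower than the other cell arrays. The means were 8.93 ± 0.35 in microvesicles and 8.07 ± 0.38 in cells (SD, n = 5 each), a rise of 0.86 ± 0.22, or 1.82-fold (limma adjusted p = 0.00459). Only 5.70% of probe sets with a mean between 8 and 9 passed upwards. The rise stood between 0.70 and 1.66 and passed under all 19 alternatives run.

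SHC1, the adaptor that brings GRB2 to phosphorylated receptors and kinases, was read by 2 probe sets. The bright one, 214853_s_at, was 8.34, 7.92, 8.05, 8.84 and 7.83 in microvesicles and 8.81, 8.81, 8.73, 8.94 and 8.77 in cells. It changed by -0.62 ± 0.20 (limma adjusted p = 0.0151), with microvesicles replicate 4 inside the range of the cells, and by 0.17 after loess and 0.14 after quantile normalization. Its mean lies between 8 and 9, where the median change was -0.79 and 65.1% of all probe sets passed downwards. The dim one, 201469_s_at, ran from 4.17 to 5.66 in microvesicles and from 4.28 to 4.58 in cells, and its change of 0.24 ± 0.26 did not pass (limma adjusted p = 0.42). The changes of these probe sets differed by 0.86 (exact permutation p = 0.0794, adjusted p = 0.119), and by 1.12 without microvesicles replicate 4 (exact permutation adjusted p = 0.026).

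STAT5A and STAT5B are closely related transcription factors encoded by neighbouring genes that overlap in the reference annotation. STAT5A has 1 probe set, 203010_at, at 7.58, 7.57, 6.97, 7.32 and 7.52 in microvesicles and 7.80, 7.83, 7.58, 8.004 and 7.76 in cells. The groups did not overlap, by a margin under 0.01 between the highest microvesicle and the lowest cell array. The change of -0.40 ± 0.17 did not pass (limma adjusted p = 0.0524), and after quantile normalization it was 0.50 and passed upwards (limma adjusted p = 0.0437). It passed downwards without microvesicles replicate 1, 2 or 5 (limma adjusted p from 0.0363 to 0.0426), with median centring (-0.56, 0.0135), with the filters on dim probe sets (0.0459 and 0.0304) and in the exact rank sum test (0.0172).

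STAT5B has 5 probe sets, of which the 4 dimmer ones fell and the brightest did not pass. The brightest, 212549_at, was 8.14, 8.40, 8.32, 7.96 and 8.12 in microvesicles and 8.50, 8.39, 8.33, 8.46 and 8.22 in cells, an overlapping change of -0.19 ± 0.16 (limma adjusted p = 0.287). After loess it was 0.62 and passed upwards (limma adjusted p = 0.00628). The probe set 1555086_at was 4.55, 4.42, 4.89, 5.34 and 4.08 in microvesicles and 6.27, 6.21, 6.15, 6.46 and 6.37 in cells. It fell by 1.64 ± 0.22, or 3.11-fold, the deepest fall among the 26 probe sets (limma adjusted p = 3.54e-05), and by 1.21 after loess.

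The STAT5B probe set 212550_at ran from 4.73 to 6.38 in microvesicles and from 6.77 to 7.26 in cells. For 1555088_x_at the ranges were 4.43 to 5.53 in microvesicles and 5.81 to 6.20 in cells, and for 205026_at 4.32 to 5.97 in microvesicles and 5.54 to 6.07 in cells. The probe sets 212550_at, 1555088_x_at and 205026_at changed by -1.35 ± 0.26, -1.06 ± 0.20 and -0.78 ± 0.30 (limma adjusted p = 0.000695, 0.000581 and 0.0332). After loess these were -0.58, -0.64 and -0.37, of which only that of 1555088_x_at passed (limma adjusted p = 0.0201). The groups overlapped only in 205026_at, whose call was lost after loess and without any of cells replicates 1 to 3 or microvesicles replicates 2 to 4 (limma adjusted p from 0.0637 to 0.083). The lowest microvesicle value of 212550_at, 4.73, was that of replicate 4. Compared with the brightest probe set, the change differed by -1.15 in 212550_at, by -1.45 in 1555086_at and by -0.87 in 1555088_x_at (exact permutation p = 0.00794 and adjusted p = 0.0179 for each), and these differences were -1.20, -1.83 and -1.26 after loess. For 205026_at the difference of -0.59 did not pass (exact permutation p = 0.151, adjusted p = 0.194). Between the brightest probe sets, the change of STAT5A minus that of STAT5B was -0.21 (exact permutation p = 0.206, adjusted p = 0.248). The probe sets were assigned to STAT5A or STAT5B by the platform annotation alone, and cross-hybridisation between these related transcripts was not tested.

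CBL, which ubiquitinates active tyrosine kinases, had probe sets in all 3 outcomes. The bright ones, 225231_at and 225234_at, overlapped between the groups and changed by -0.19 ± 0.25 and 0.02 ± 0.26 (limma adjusted p = 0.506 and 0.959). After loess 225234_at was 0.88 and passed (limma adjusted p = 0.0183). For 225231_at the values were 7.86, 7.80, 8.80, 8.51 and 7.44 in microvesicles and 8.38, 8.37, 8.55, 8.04 and 8.02 in cells. For 225234_at they ran from 6.25 to 7.70 in microvesicles and from 6.97 to 7.34 in cells. Among the dimmer ones 206607_at rose by 1.29 ± 0.33 (limma adjusted p = 0.00427), with 5.49, 7.15, 5.76, 5.69 and 4.87 in microvesicles and 4.41, 4.57, 4.82, 4.60 and 4.12 in cells. Microvesicles replicate 2 stood more than a log2 unit above the others, and without it the rise was 0.95 (limma adjusted p = 0.00278).

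The CBL probe set 243475_at rose by 0.42 ± 0.16 (limma adjusted p = 0.0335) at 5.37 to 5.84 in microvesicles and 4.89 to 5.20 in cells, with groups that did not overlap. That call was lost with median centring (0.26, limma adjusted p = 0.185) and without microvesicles replicate 1 or any single cell array (0.0523 to 0.0839). The probe set 229010_at fell by 0.83 ± 0.25 (limma adjusted p = 0.0118; -0.72 after loess), a call lost after quantile normalization (-0.71, limma adjusted p = 0.0778) and in the exact rank sum test (adjusted p = 0.138), with microvesicles replicate 4 at 5.54 inside the cells' range of 5.18 to 5.59 and the other 4 between 4.05 and 4.51. Relative to 225231_at the change was higher by 1.48 in 206607_at (exact permutation p = 0.00794, adjusted p = 0.0179) and differed by -0.64 in 229010_at (exact permutation p = 0.0238, adjusted p = 0.0476). After loess these differences were 0.89 (exact permutation adjusted p = 0.0571) and -1.35 (0.0179), and in the deposited values the second was lost without any single cell array or microvesicles replicate 3 (adjusted p from 0.0635 to 0.127).

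LYN, a SRC family kinase of blood cells, was lower in microvesicles in all 3 of its probe sets in the deposited values, of which 202626_s_at was at 0.01 after loess. All 3 have a mean between 8 and 9 over the arrays. In that band the median change was -0.79 and 65.1% of all probe sets passed downwards. The brightest, 202626_s_at, was 8.58, 8.27, 8.22, 8.15 and 8.57 in microvesicles and 9.19, 9.05, 9.07, 9.16 and 9.08 in cells, a change of -0.75 ± 0.16 (limma adjusted p = 0.00113) that stood at 0.01 after loess and -0.05 after quantile normalization. The probe set 210754_s_at was 7.67, 7.70, 7.99, 6.49 and 7.91 in microvesicles and 9.10, 8.86, 8.94, 8.96 and 8.87 in cells, a change of -1.39 ± 0.25 (limma adjusted p = 0.000415). The third, 202625_at, was 7.58, 7.61, 7.67, 7.10 and 7.64 in microvesicles and 8.71, 8.999, 8.84, 8.82 and 8.70 in cells, a change of -1.29 ± 0.17 (2.58e-05).

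The groups were apart in all 3 LYN probe sets, and microvesicles replicate 4, the array with the highest ACTB 3' minus 5' difference, was the lowest in each. The members went both ways in that array. Among the brightest probe sets it was the highest microvesicle array for ABL1, BCR, GRB2, CRKL and SHC1, and the lowest for STAT5B and LYN. A link to RNA integrity was not tested. Without microvesicles replicate 4 the changes of LYN 210754_s_at and 202625_at were -1.12 and -1.19, and both passed. After loess the change of 202625_at was -0.47 and passed (limma adjusted p = 0.0288), while that of 210754_s_at was -0.58 and did not (0.0616). The changes of 210754_s_at and 202625_at differed from that of 202626_s_at by -0.64 and -0.54 (exact permutation p = 0.00794 and adjusted p = 0.0179 for each), and by -0.59 (exact permutation adjusted p = 0.0571) and -0.49 (0.0179) after loess.

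**Figure D3:**
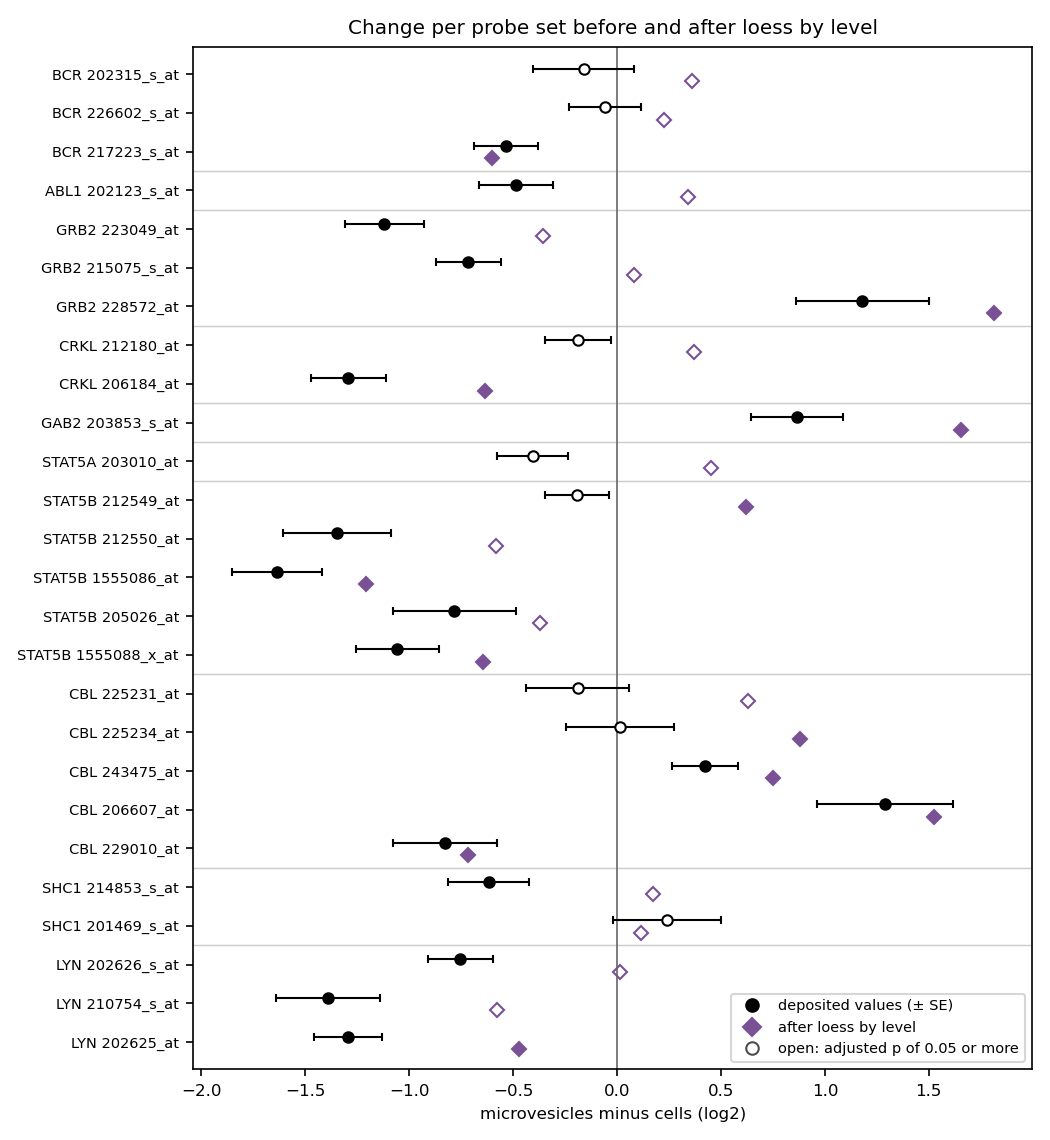
Microvesicles minus cells (log2, horizontal axis) of each probe set in the deposited values (circles, ± SE) and after loess normalization by level (diamonds), with open symbols where the adjusted p was 0.05 or more. Most symbols move to the right after loess (ABL1 is at -0.49 as deposited and 0.34 after it), while GAB2 (0.86 and 1.66) and GRB2 228572_at (1.18 and 1.81) are positive on both scales.

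Of the 18 pairs of probe sets compared, 16 were within a gene. In the deposited values 9 passed, and these 9 all lay within GRB2, CRKL, STAT5B, CBL and LYN. After loess BCR 217223_s_at passed as well (exact permutation adjusted p = 0.0179), and CBL 206607_at and LYN 210754_s_at did not (0.0571 each). Each pair sets a dimmer probe set against a brighter one, and the share of such pairs passing over all genes is not given here. GRB2 and CBL were the 2 of the 7 members with several probe sets that had calls in both directions. Taking the mean of all probe sets of a gene instead, GAB2 rose (0.86 ± 0.21) and ABL1, CRKL, STAT5A, STAT5B and LYN fell, with changes of -0.49 ± 0.15, -0.74 ± 0.11, -0.40 ± 0.15, -1.003 ± 0.14 and -1.15 ± 0.15 (limma adjusted p from 4.72e-05 to 0.0247). BCR (-0.25 ± 0.13), GRB2 (-0.22 ± 0.16), SHC1 (-0.19 ± 0.13) and CBL (0.14 ± 0.17) did not pass by that measure. The averaged values were fitted on the deposited scale only, and the share of all genes passing in that fit is not given here. By the brightest probe set of each gene, 34.6% of all genes passed upwards and 30.8% downwards. After loess the probe sets of ABL1 and STAT5A stood at 0.34 and 0.45. ABL1, GAB2 and STAT5A have 1 probe set each, so their changes are those given above; the call of STAT5A in this fit (limma adjusted p = 0.0247, against 0.0524) comes with the other set of features fitted and adjusted over, not with averaging.

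**Figure D4:**
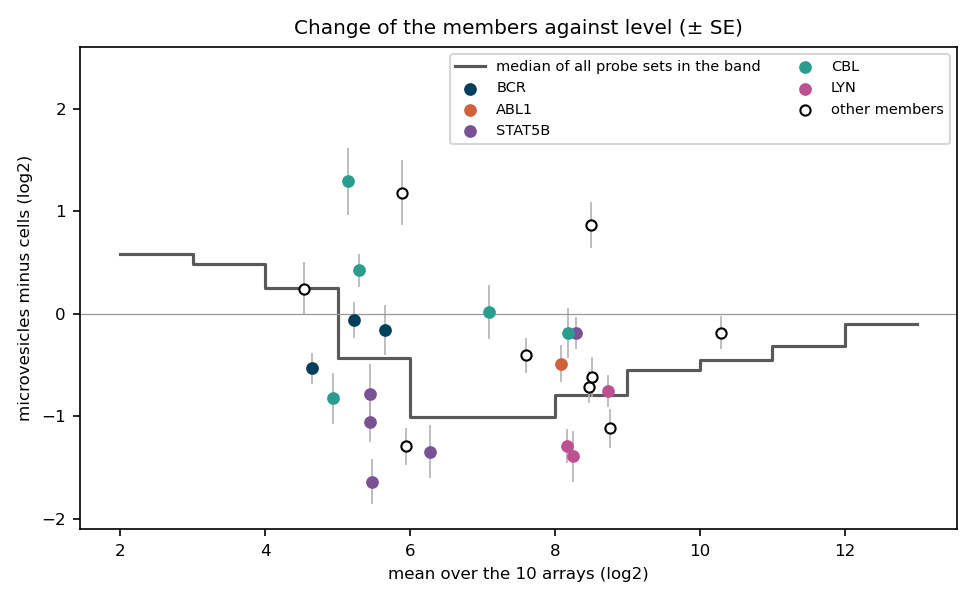
Microvesicles minus cells (log2, ± SE, vertical axis) of the 26 probe sets against their mean over the 10 arrays (log2, horizontal axis), with the median change of all probe sets in each band of level as a stepped line. ABL1 lies above the line of its band (-0.79), the 4 dimmer STAT5B probe sets lie below theirs, and GAB2 lies above its band by the widest margin among probe sets with a mean above 6.

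Further genes of the BCR-ABL1 pathway were read from a list of 70, of which 58 had a single-gene probe set here. By their brightest probe sets 10 rose, 24 fell and 24 did not pass, with a median change of -0.14. Over the brightest probe sets of all 19775 genes 34.6% passed upwards and 30.8% downwards, with a median of 0.20, against 17.2% and 41.4% of these 58. Those shares are not matched for level. With a filter at 6 on the higher group mean, 4 rose and 21 fell of the 38 pathway genes left. Of the 15230 probe sets left in all, 1575 rose and 10224 fell. After loess 24 of the 58 rose and 9 fell (41.4% and 15.5%, against 26.1% and 17.7% of all genes), so the balance of the list turned with the scaling.

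Among the 7 other kinases 3 rose and 3 fell, against 4 and 1 after loess. JAK2, the kinase of cytokine receptors, fell by 2.51 ± 0.24, with means of 3.997 ± 0.29 in microvesicles and 6.503 ± 0.49 in cells (SD, n = 5 each, limma adjusted p = 2.21e-06), in all 3 of its probe sets, with -2.21 after loess. BTK, a kinase of B cells and myeloid cells, changed by -1.59 ± 0.32 (-0.80 after loess, adjusted p = 0.0695). SYK and FES, further non-receptor tyrosine kinases, rose by 1.10 ± 0.18 and 0.63 ± 0.23 (0.68 and 0.58 after loess), with SYK at 4.17 in microvesicles and 3.08 in cells. Both SYK means lay below the median of the table, 4.19. At the level of SYK, a mean between 3 and 4, 45.1% of all probe sets passed upwards as deposited. At that of FES, between 4 and 5, 34.96% did.

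Of the 14 adaptors and exchange factors 3 rose and 6 fell, against 6 and 3 after loess. The brightest probe set of SOS2, a RAS exchange factor that binds GRB2, fell by 2.53 ± 0.27 (limma adjusted p = 5.31e-06), and by 1.89 after loess. It stood at 4.64 ± 0.62 in microvesicles and 7.17 ± 0.27 in cells. Of the 6 probe sets of SOS2 only that 1 passed downwards, and 2 passed upwards. NCK1, an adaptor to the actin cytoskeleton, fell by 1.96 ± 0.26 (-1.10 after loess) in all 4 of its probe sets. The RAS effector gene RIN1 and the adaptor gene DOK2 rose by 0.91 ± 0.18 and 0.75 ± 0.22, to 5.37 and 4.64 in microvesicles, against 4.45 and 3.89 in cells. After loess RIN1 stood at 1.002 and DOK2 at 0.51, where DOK2 lost its call (limma adjusted p = 0.0943). Both have a mean between 4 and 5 over all arrays, a level at which 34.96% of all probe sets passed upwards as deposited.

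Phosphatases and other inhibitors had 1 rise and 3 falls of 12, against 3 and 0 after loess (limma in both). SOCS3, a feedback inhibitor of cytokine signalling, rose by 0.54 ± 0.17 (0.93 after loess). The phosphatase genes PTPN1 and PTPN11 changed by -0.91 ± 0.17 and -0.62 ± 0.16, and after loess by -0.05 and -0.07 (limma adjusted p = 0.861 and 0.777). For PTPN1 3 of the 4 probe sets passed upwards, all but the brightest. For PTPN11 1 of the 6 probe sets passed upwards and 3 downwards.

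In the RAS-ERK group 1 of 4 fell and 0 rose (limma; 3 rose and 1 fell after loess), and the fall was that of MAP2K1, the kinase that phosphorylates ERK, at -1.50 ± 0.23 (limma adjusted p = 0.000123; -0.70 after loess). In the PI3K-AKT group 5 of 7 fell and 0 rose, with PIK3R1, the regulatory subunit of phosphoinositide 3-kinase, at -1.53 ± 0.28 (-0.70 after loess) and MTOR at -1.28 ± 0.18 (-1.02 after loess), where 2 rose and 2 fell after loess. MTOR had 1 of its 2 probe sets past the threshold upwards.

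Among 14 STAT5 and survival targets 3 rose and 6 fell, against 6 and 2 after loess. OSM, a cytokine gene induced by STAT5, rose by 1.303 ± 0.18, with 6.52 ± 0.30 in microvesicles and 5.22 ± 0.20 in cells (SD, n = 5 each, limma adjusted p = 6.13e-05; 1.93 after loess), in both of its probe sets. The survival gene BCL2 rose by 0.94 ± 0.22 in its brightest probe set (1.40 after loess), with 1 of its 4 probe sets past the threshold the other way. ID1 and MYC, regulators of differentiation and growth, changed by -1.90 ± 0.30 and -1.17 ± 0.19, both passing downwards (-1.17 and -0.60 after loess).

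By the rule for likeness, deviations from the group mean scaled by the group's SD over the 10 arrays, the genes most like ABL1 were SMAD2 (r = 0.98), SPPL3 (0.97) and PPP2R5E (0.97). Those most like BCR 202315_s_at were PPFIA1 (r = 0.93), CARD8 (0.93) and ZNF33B (0.92). These are the highest values among 13287 probe sets over 10 arrays that share the scaling of the table, and they are given as a description.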

How the data were processed

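RNA of 5 microvesicle and 5 cell preparations was measured on 10 arrays. The authors deposited log2 values, 1 per probe set and array, from RMA, per the submitters' processing notes; RMA as a method corrects background, quantile-normalizes and summarises probes, and which settings they chose is not stated there. As deposited, the microvesicle and cell arrays differed in median and SD, so they did not share a common distribution. The values carry no detection call, and for arrays their number limits the precision. Control probe sets (17) were left out of the tests. Gene names came from the platform annotation, updated through the gene number to RefSeq's table of GRCh38.p14, in which all 10 members were found.

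Microvesicles were compared with cells by limma 3.58.1 in R 4.3.3 (lmFit, eBayes, 1 mean per group, 2-sided) on all 54613 probe sets, with Benjamini-Hochberg adjustment over all of them. A probe set passed at an adjusted p under 0.05. Probe sets of a gene were compared by an exact permutation test of their per-array difference against the gene's brightest probe set, adjusted over 18 pairs (16 within members, BCR against ABL1, and STAT5A against STAT5B). The fit was tested on simulated data. Named pathway genes are up to 2 largest rises and 2 largest falls past the threshold in each role. The members and lists were chosen with earlier results of these data known. Alternatives were the replicate number as a block, 3 scalings, 2 filters on dim probe sets, a variance trend, array weights, an exact rank sum test, averaging the probe sets of each gene and leaving out each array.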

Additional observations from a re-analysis of the deposited data

Results flagged for a closer look

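In 5 of 88 groups of 5 arrays (the members' probe sets and the named pathway genes), a single array stood far from the other 4 by Dixon's ratio of gap to range; chance gives about 1 in 20. LYN 202625_at was 7.10 in microvesicles replicate 4, against 7.58 to 7.67 in the other microvesicle arrays. LYN 210754_s_at was 6.49 in the same array, against 7.67 to 7.99. CBL 243475_at was 5.84 in microvesicles replicate 1, against 5.37 to 5.50 in the others. CBL 225234_at was 7.34 in cells replicate 1, against 6.97 to 7.04 in the other cell arrays. MAP2K1 was 6.74 in microvesicles replicate 2, against 7.77 to 8.15 in the others.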

How the results depend on the processing

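Of the 18 calls among the members' probe sets, 8 kept direction and threshold in every alternative run that could test them: BCR 217223_s_at, GRB2 228572_at, CRKL 206184_at, GAB2 203853_s_at, STAT5B 1555086_at and 1555088_x_at, CBL 206607_at and LYN 202625_at. The scaling moved the rest most, with 10 of 18 calls kept after loess and 9 after quantile normalization. The members' rises and falls numbered 4 and 14 as deposited, 6 and 6 after loess, 7 and 5 after quantile normalization, and 2 and 11 with a filter at 6 on the higher group mean, which left 17 probe sets, some through 1 group alone. Those of the 58 pathway genes numbered 10 and 24 as deposited, 24 and 9 after loess, 20 and 8 after quantile normalization, 5 and 25 with median centring, 4 and 21 with a filter at 6 (38 genes left) and 17 and 20 on averaging the probe sets of each gene; leaving out an array gave 6 to 13 rises, the 6 without cells replicate 2 or microvesicles replicate 3. Over all 54613 probe sets, 10282 rose and 10111 fell after quantile normalization, and 13032 rose and 16492 fell with median centring. The filter at 6 left 15230 of all probe sets, of which 1575 rose and 10224 fell. Leaving out an array gave 15790 to 19710 rises over all probe sets. The cause of the shifts in these counts was not tested.

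Signs turned after loess for ABL1 (0.34), BCR 202315_s_at (0.36) and 226602_s_at (0.23), LYN 202626_s_at (0.0126), STAT5A (0.45), CRKL 212180_at (0.37), STAT5B 212549_at (0.62), SHC1 214853_s_at (0.17), GRB2 215075_s_at (0.0796), CBL 225231_at (0.63), and the pairs within BCR (226602_s_at, -0.14) and SHC1 (-0.0606). After quantile normalization they turned for ABL1 (0.37), BCR 202315_s_at (0.31) and 226602_s_at (0.19), STAT5A (0.50), CRKL 212180_at (0.27), STAT5B 212549_at (0.62), SHC1 214853_s_at (0.14), GRB2 215075_s_at (0.0611), CBL 225231_at (0.64), the BCR pair of 226602_s_at (-0.11) and BCR minus ABL1 (-0.0663). With median centring CBL 225234_at turned (-0.14). Leaving out an array gave ranges of -0.56 to -0.37 for ABL1, -0.13 to 0.0166 for BCR 226602_s_at, -0.13 to 0.23 for CBL 225234_at, -0.0121 to 0.362 for SHC1 201469_s_at, 0.18 to 0.47 for BCR minus ABL1, -0.0361 to 0.24 for the BCR pair of 226602_s_at and -0.0169 to 0.35 for the CBL pair of 225234_at.

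Of the 5 pairs with the same number, 4 had deviations that correlated above 0 and 1 passed 0.1 (range -0.03 to 0.11). Pairs with different numbers ran from -0.08 to 0.07. Cells replicates 1, 3, 4 and 5 correlated best with their own number, and cells replicate 2 did not. Microvesicles replicates 3, 4 and 5 did so too, and replicates 1 and 2 did not. The labels do not say that equal numbers share a culture, so the number served only as an alternative block. Whether the numbers mark a shared experiment is not known. With the replicate block 16 of the 18 members' calls were kept, 3 rose and 13 fell, and ABL1 (-0.49) had a limma adjusted p of 0.05002. Over all 54613 probe sets 18708 rose and 14606 fell with that block. In the sign flip test over replicate pairs (replicate block) 0 of 18 pairs of probe sets passed, since 5 pairs cannot reach the threshold.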
